A study of Mus musculus with 28 samples.

Results

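Long-term haematopoietic stem cells (LT-HSC) and MPP3, a multipotent progenitor population of the bone marrow, were compared within the same aged mice, all of which had received Dnmt3a-mutant marrow. Every library labelled as aged, Dnmt3a-mutant and LT-HSC (n = 4) or MPP3 (n = 4) was used, which makes 8 of the 28 libraries of the series. Each library pooled the cells of 2 recipients, and the animal numbers in the titles show that the same 4 pairs of recipients, called sets 1 to 4 here, gave both cell types. Polyadenylated RNA was sequenced in bulk and counted per gene. The donors were young, the recipients were aged CD45.1 mice, whose CD45 variant lets donor cells be told apart from the host's, and the cells were re-isolated 4 months after transplant. The labels describe neither the mutant allele nor the induction of any recombinase, and the control donors elsewhere in the series carried the Mx1-Cre transgene, an interferon-inducible recombinase. The strain is labelled C57BL/6 for 7 of the 8 libraries and C57BL/7 for the MPP3 library of set 4. Aged recipients of control marrow (4 MPP3 and 3 LT-HSC libraries) and young recipients of control marrow (4 and 4) served to ask whether the cell type difference itself differed. Whether the 4 sets had separate donors is not stated, so the p-values measure the spread between sets of recipients and not between donors. That spread was estimated over all 28 libraries of the series, not from these 4 sets alone.

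LT-HSC are rare, mostly quiescent cells that can rebuild all blood lineages for the life of an animal. MPP3 lie downstream of them, have lost long-term self-renewal and give mainly granulocytes and monocytes. The populations are separated by surface proteins of the SLAM family: LT-HSC carry CD150, the product of Slamf1, and lack CD48, MPP3 carry CD48 and lack CD150, and Flt3 marks a further progenitor that leans to the lymphoid lineages. DNMT3A is a DNA methyltransferase that is often mutated in the expanded blood cell clones of elderly people. By its title, the series asks how different TNF receptors bear on stem cells and their lineages in ageing blood.

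The marker genes followed the cell type labels in direction. Slamf1 (ENSMUSG00000015316, chr1:171767127-171801184, GRCm38) had 204, 67.3, 31.8 and 13.4 counts per M (mega) counts (CPM) in the LT-HSC of sets 1 to 4, and 0, 0, 3.755 and 0.29 CPM in their MPP3. Cd48 (ENSMUSG00000015355, chr1:171682009-171705258) had 0, 0, 21.6 and 0.174 CPM in LT-HSC against 58.6, 43.2, 28.9 and 54.1 CPM in MPP3. For both genes the groups did not overlap, with the LT-HSC library of set 3 closest to MPP3 for Cd48. The log2 change from LT-HSC to MPP3 was -7.10 (SE 2.05) for Slamf1 and 7.53 (SE 2.19) for Cd48, and neither passed edgeR's quasi-likelihood test after Benjamini-Hochberg adjustment (adjusted p = 0.0959 and 0.0990). Flt3 overlapped, at 34.6 to 61.3 CPM in LT-HSC and 29.8 to 129 CPM in MPP3, with a log2 change of 0.60 (SE 0.48, adjusted p = 0.640). Dnmt3a, a methyltransferase gene that the label says is mutated, was detected in all 8 libraries, at 42.0 to 161 CPM in LT-HSC and 62.3 to 134 CPM in MPP3 (log2 change 0.40, SE 0.41, adjusted p = 0.739). Its level cannot check the genotype, since the allele is not described.

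**Figure D1:**
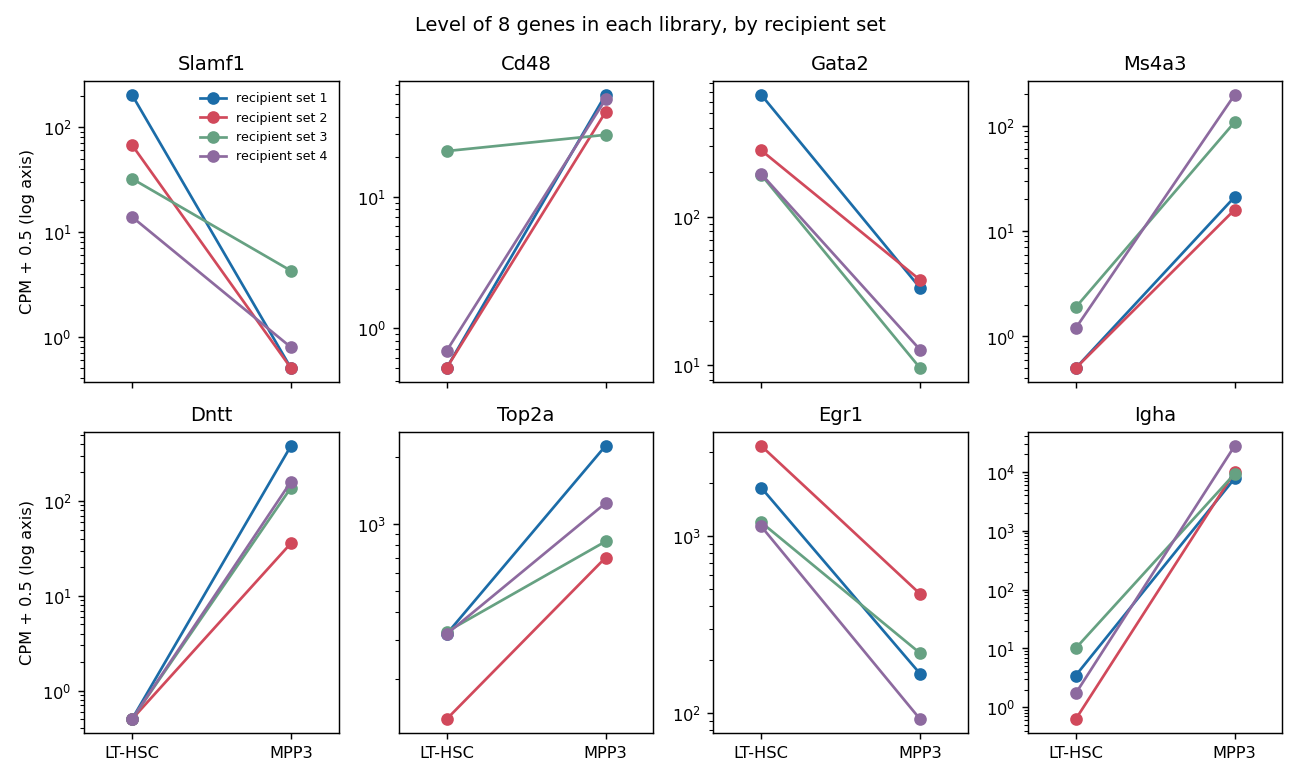
CPM plus 0.5 on a log axis of 8 genes in LT-HSC and MPP3, with a line joining the 2 libraries of each recipient set. Slamf1, Gata2 and Egr1 lie lower and Cd48, Ms4a3, Dntt, Top2a and Igha higher in the MPP3 of all 4 sets, and Cd48 of set 3 moves least, from 21.6 to 28.9 CPM.

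Total counts were 6.71 to 7.52 M in the 4 LT-HSC libraries and 5.71 to 10.79 M in the 4 MPP3 libraries, and 3 counts correspond to 0.29 to 0.52 CPM. Libraries of a group differed far beyond counting noise, with a chi-square of at least 81.4 per gene for every pair of replicates, and none was a duplicate. The LT-HSC libraries of sets 1 and 4 stood apart. On the first 2 principal components of the 8 libraries, which held 31.2% and 20.7% of the variance, set 1 lay at -144.5 on the first and set 4 at -130.7 on the second, while the other LT-HSC libraries lay between -40.0 and 4.98 on both. Immunoglobulin genes took 1.33% and 1.61% of the counts in these libraries and at most 0.0247% in the other LT-HSC libraries of the series, against 1.79% to 4.98% in the 4 MPP3 libraries. For each list with called genes, what was called without sets 1 and 4 is therefore given too. That leaves 2 sets in the comparison and lowers the power as well.

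Of 16309 genes tested, 234 (1.43%) passed an adjusted p of 0.05 between MPP3 and LT-HSC (edgeR quasi-likelihood test, Benjamini-Hochberg), here termed called. Higher in MPP3 were 125 (0.766%) and lower 109 (0.668%). Of the 234 called genes, 226 had the same direction in all 4 sets. The libraries of the groups did not overlap for 184 of the called genes and for 1108 (6.79%) of all genes tested. At an unadjusted p under 0.05 there were 2138 genes (13.1%). Without sets 1 and 4, 15 genes were called, 11 higher and 4 lower, and 13 of these were among the 234. Set 1 weighed most: without it 57 genes were called, and without set 3 the count was 129. Both libraries of each of these sets had been sequenced in the same pool, as inferred from the library numbers. With sets as blocks, a pool covariate therefore cannot adjust the change within them. It acts on these calls through the estimated spread. In pool 1, which held sets 1, 2 and 4, 54 genes were called, and pool 2 held set 3 alone.

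**Figure D2:**
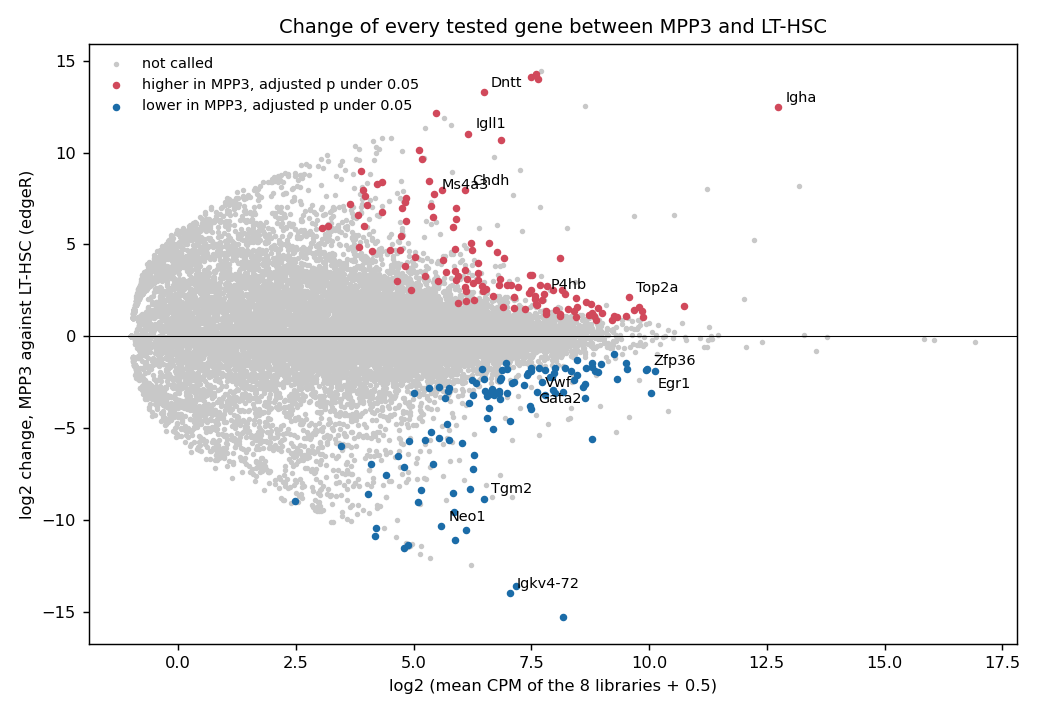
Log2 change from LT-HSC to MPP3 (y axis, edgeR) of all 16309 tested genes against the log2 of their mean CPM plus 0.5 over the 8 libraries (x axis). Coloured points are the 125 genes called higher and the 109 called lower, and named points are genes described in the text.

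Stem cell identity genes were lower in MPP3 where they were called. Of a list of 40 genes known from LT-HSC, all 40 tested, 15 were called lower and 0 higher, against 0.668% of all genes called lower. All 40 had a negative log2 change, with a median of -3.59 (-3.42 with genes at the detection floor set to their bound) against 0.144 over all genes tested. Without set 1 the list held 8 called genes, and without sets 1 and 4 it held 2, with medians of -3.23 and -3.64. In bulk RNA, fewer cells that express a gene and less RNA per cell cannot be told apart, here and in all that follows. The gene lists, this one and those below, were chosen with earlier results of these data known. Their counts are therefore no independent support.

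Gata2 (ENSMUSG00000015053, chr6:88193891-88207032) encodes a zinc finger transcription factor that stem cells need for their maintenance. Its level was 668, 282, 192 and 195 CPM in the LT-HSC of sets 1 to 4 and 32.7, 37.0, 9.05 and 12.2 CPM in MPP3. Every LT-HSC library lay at least at 192 CPM and every MPP3 library at most at 37.0. The log2 change of Gata2 was -3.92 (SE 0.46, adjusted p = 0.000349 by edgeR), and the call remained without sets 1 and 4. Hlf, a bZIP transcription factor of stem cells, had 1302, 1239, 1075 and 439 CPM in LT-HSC and 239, 609, 130 and 68.4 CPM in MPP3. It fell in every set, although the highest MPP3 library, of set 2, was above the lowest LT-HSC library, of set 4 (log2 change -2.32, SE 0.32, adjusted p = 0.000667).

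Genes of secreted, enzymatic and surface proteins of this list were among those called. Vwf, the von Willebrand factor, which in the marrow is also made by stem cells that lean to platelets, had 677, 329, 281 and 133 CPM in LT-HSC and 52.9, 45.9, 37.5 and 20.4 CPM in MPP3 (log2 change -3.03, SE 0.42, adjusted p = 0.000667). Tgm2, a protein crosslinking enzyme, had 138, 257, 234 and 85.3 CPM in LT-HSC and was almost silent in MPP3, with 0, 0.167, 0.171 and 3.48 CPM (log2 change -8.84, SE 1.27, adjusted p = 0.000813). Neo1, the receptor neogenin, had 65.9, 143, 142 and 30.5 CPM in LT-HSC and 2 counts in all 4 MPP3 libraries together. Its ratio of LT-HSC to MPP3 was 1486, with a counting interval of 411 to 12270 (95%, exact Poisson on the 2 counts), and its adjusted p was 0.00260. None of these 3 genes overlapped between the groups, which for Neo1 was a condition of naming it.

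Tek, the angiopoietin receptor Tie2 and a cytokine receptor known for stem cell quiescence, belonged to the same list. It had 46.7, 104, 61.6 and 3.49 CPM in LT-HSC and 0, 1.83, 0.683 and 0 CPM in MPP3, without overlap (log2 change -7.13, SE 1.71, adjusted p = 0.0389). Its call ended without any 1 of the 4 sets, with the pool as a covariate and without sets 1 and 4. In the list of 33 tested cytokine receptors 2 genes were called lower, Tek among them, against 0.668% of all genes. Ifngr1, a chain of the interferon gamma receptor, was the 1 called higher, against 0.766% of all genes. Ifngr1 had 3.86, 27.1, 21.0 and 105 CPM in LT-HSC and 68.0, 121, 157 and 241 CPM in MPP3 (log2 change 2.57, SE 0.57, adjusted p = 0.0229), and the groups overlapped through the LT-HSC of set 4. Ifngr1 was not called without set 1, 2 or 3, without the replicate block or with limma voom. No member of the list was called by edgeR without sets 1 and 4.

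Homeobox factors and their partners had a median log2 change of -2.196 over 19 tested members, of which 17 were negative and 2 were called lower (0 higher), against 0.668% of all genes called lower. Meis1, a homeobox factor of stem cells, had 402, 447, 364 and 261 CPM in LT-HSC and 56.9, 220, 124 and 24.8 CPM in MPP3, and fell by 2.196 on the log2 scale (SE 0.48, adjusted p = 0.0225). Hoxb8 was not called (adjusted p = 0.0549), yet had 0 counts in all 4 MPP3 libraries against 42.1, 8.61, 10.8 and 158 CPM in LT-HSC, at least 129.6-fold lower in MPP3 when set against 3 counts per library. Meis1 was not called without set 1, 3 or 4 or without sets 1 and 4, and the list then held 1 called gene in each case.

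Further genes among the 12 with the smallest adjusted p on the lower side were Itsn1, St3gal1 and Plxnc1, an endocytic scaffold, a sialyltransferase and a plexin receptor. Itsn1 had 93.7 to 336 CPM in LT-HSC and 15.2 to 23.4 CPM in MPP3, and its log2 change was -3.06 (SE 0.43, adjusted p = 0.000667). St3gal1 ranged from 480 to 972 CPM in LT-HSC and from 73.1 to 164 CPM in MPP3, a log2 change of -2.78 (SE 0.40, adjusted p = 0.000813). For Plxnc1 the ranges were 118 to 699 CPM and 19.0 to 109 CPM, a log2 change of -3.09 (SE 0.47, adjusted p = 0.00166). All 3 separated the groups completely, which the choice of these 12 required. None of the 3 was called without sets 1 and 4.

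Genes of the megakaryocyte and erythroid lineages were also lower where they were called. Of 29 tested, 4 were called lower and 0 higher, against 0.668% of all genes called lower. A negative change was found in 25, and the median was -3.27 (-3.24 at the bound). Car2, a carbonic anhydrase of red cells and platelets, had 612, 298, 550 and 776 CPM in LT-HSC and 223, 136, 99.2 and 29.1 CPM in MPP3 (log2 change -2.37, SE 0.46, adjusted p = 0.0122). Gfi1b, a repressor needed in both lineages, had 51.8, 44.4, 29.6 and 37.3 CPM in LT-HSC and 0.129, 3.34, 0 and 0 CPM in MPP3 (log2 change -7.53, SE 1.61, adjusted p = 0.0197). Zfpm1, the GATA cofactor FOG1, ranged from 25.3 to 286 CPM in LT-HSC and from 3.10 to 17.7 CPM in MPP3 (log2 change -3.21, SE 0.69, adjusted p = 0.0198). These 3 genes did not overlap between the groups. Pf4, a platelet chemokine, had 14.1, 11.8, 14.7 and 0 CPM in LT-HSC and 0 counts in all MPP3 libraries, at least 24.0-fold lower in MPP3 against 3 counts per library (adjusted p = 0.0186), and overlapped through the LT-HSC of set 4. The summed level of the list was 18020 CPM in that library against 1925 to 4752 CPM in the other 3 LT-HSC libraries, and its part in the result was not tested. The count of called genes was 1 without set 1, 0 without set 3, 2 without set 4 and 0 without sets 1 and 4, with a median of -1.47 in the last.

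Immediate-early genes, which cells switch on within minutes of a stimulus and which also respond to tissue handling, were lower in MPP3 where they were called. Of 29 tested, 9 were called lower and 0 higher, against 0.668% of all genes called lower. The change was negative in 23 and positive in 6. In 17 the libraries did not overlap, all of them lower in MPP3, against 2.91% of all genes. The median log2 change was -1.83, and the summed level of the list was 7916 to 12340 CPM in LT-HSC and 2469 to 4191 CPM in MPP3. In the other groups of the series the sums were 5089 to 6301 CPM in LT-HSC and 1766 to 3053 CPM in MPP3. The labels give no time between dissection and lysis for either cell type, and the part of handling was not tested. The count was 4 without set 1 and 0 without sets 1 and 4, with a median of -1.59 in the last.

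Egr1, a zinc finger transcription factor, had 1877, 3233, 1195 and 1135 CPM in LT-HSC and 166, 470, 217 and 91.6 CPM in MPP3. The lowest LT-HSC library, of set 4, was far above the highest MPP3 library, of set 2, and the log2 change was -3.09 (SE 0.41, adjusted p = 0.000665). Zfp36 and Zfp36l2 encode proteins that bind AU-rich elements and speed mRNA decay. Zfp36 had 1383, 1656, 1322 and 1687 CPM in LT-HSC and 320, 695, 333 and 437 CPM in MPP3 (log2 change -1.83, SE 0.24, adjusted p = 0.000665). Zfp36l2 ranged from 538 to 1997 CPM in LT-HSC and from 313 to 501 CPM in MPP3 (log2 change -1.46, SE 0.26, adjusted p = 0.00561). Klf6, a Kruppel-like factor, had 507 to 1035 CPM in LT-HSC and 146 to 260 CPM in MPP3 (log2 change -1.88, SE 0.26, adjusted p = 0.000667). All 4 genes separated the groups, and Zfp36 was the most even of them among the LT-HSC libraries. In RefSeq promoter windows of 250 bases before the transcript start (GRCm38.p6), the CArG box, the serum response element core, searched on both strands, was present in 6 of 34 windows of 25 of the listed genes (17.6%) and in 1.47% of all 32851 windows. Of the 7 windows of called members, 1 held it.

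Cell cycle genes were higher in MPP3 where they were called. Of 75 tested, 9 were called higher and 0 lower, 73 had a positive change, and the median was 1.83, against 0.766% of all genes called higher. The libraries did not overlap for 19 members, all higher in MPP3, against 3.88% of all genes. The summed level was 3284, 2375, 5649 and 5971 CPM in the LT-HSC of sets 1 to 4 and 19210, 7529, 9324 and 13000 CPM in their MPP3. The sums did not overlap, and set 1 had the widest gap. The count was 2 without set 1 and 1 without sets 1 and 4, with medians of 1.46 and 1.22.

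Top2a (ENSMUSG00000020914, chr11:98992943-99024189), the topoisomerase that untangles replicated DNA, had 317, 131, 325 and 317 CPM in LT-HSC and 2252, 703, 833 and 1240 CPM in MPP3. Its log2 change was 2.15 (SE 0.30, adjusted p = 0.000667 by edgeR). Ube2c (ENSMUSG00000001403, chr2:164769898-164778822), the ubiquitin conjugating enzyme of the anaphase promoting complex, had 4.15, 5.32, 69.1 and 105 CPM in LT-HSC and 772, 205, 285 and 759 CPM in MPP3 (log2 change 4.28, SE 0.70, adjusted p = 0.00260). Cenpe, a kinetochore motor, had 9.35, 27.5, 62.3 and 44.1 CPM in LT-HSC and 455, 226, 223 and 402 CPM in MPP3 (log2 change 3.35, SE 0.62, adjusted p = 0.00885). None of the 3 overlapped. Cenpf, a kinetochore protein, did overlap, with 13.7 to 200 CPM in LT-HSC and 180 to 679 CPM in MPP3 (log2 change 2.80, SE 0.56, adjusted p = 0.0138), and it was the 1 listed gene called without sets 1 and 4.

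The promoters of Top2a and Ube2c are shown because these genes moved together and both windows carry repeated CCAAT boxes, the site of the factor NF-Y. The Top2a window covers chr11:99024190-99024439 on the minus strand and the Ube2c window chr2:164769679-164769897 on the plus strand (RefSeq, GRCm38.p6). Both run 5′ to 3′, the first ends at the gene's annotated start, the second is shortened to 219 bases to end there too, and capitals mark CCAAT on either strand and, in Top2a, TTTGAA on either strand.
Top2a: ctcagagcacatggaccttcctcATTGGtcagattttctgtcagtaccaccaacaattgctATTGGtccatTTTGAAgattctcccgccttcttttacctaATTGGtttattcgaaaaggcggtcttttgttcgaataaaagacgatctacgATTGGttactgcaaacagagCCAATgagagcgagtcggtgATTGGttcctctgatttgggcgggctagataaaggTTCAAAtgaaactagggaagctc
Ube2c: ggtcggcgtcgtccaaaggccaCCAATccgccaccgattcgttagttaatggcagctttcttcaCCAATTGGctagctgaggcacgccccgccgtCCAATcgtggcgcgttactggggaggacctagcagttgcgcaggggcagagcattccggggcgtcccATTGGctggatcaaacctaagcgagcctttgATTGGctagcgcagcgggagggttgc
Each window held 6 CCAAT matches, 2 of which overlap in Ube2c, and Top2a held 2 matches of TTTGAA, the core of the cell cycle homology region bound by the DREAM complex. Over windows of 250 bases, CCAAT was in 51 of 69 windows of 62 listed cell cycle genes (73.9%), in 7 of 7 windows of called members and in 33.8% of all windows. TTTGAA was in 18 of the 69 (26.1%), in 5 of the 7 (71.4%) and in 16.0% of all windows.

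Regulators of cell cycle entry gave 1 call in each direction among 19 tested, against 0.766% of all genes called higher and 0.668% called lower. Cdk6, the G1 kinase whose onset sets how fast stem cells leave quiescence, had 211, 82.5, 217 and 364 CPM in LT-HSC and a narrow 655, 616, 702 and 656 CPM in MPP3. It rose by 1.76 on the log2 scale (SE 0.28, adjusted p = 0.00255), also without sets 1 and 4, where it was the 1 call of the list. Rbl2, the retinoblastoma-like protein p130 of resting cells, had 136 to 285 CPM in LT-HSC and 43.7 to 79.9 CPM in MPP3 (log2 change -1.46, SE 0.36, adjusted p = 0.0452). Foxo3, a quiescence factor, did not pass, at 292 to 380 CPM in LT-HSC and 81.4 to 264 CPM in MPP3 (log2 change -1.28, SE 0.36, adjusted p = 0.0870). The call of Rbl2 ended without any 1 of the 4 sets, with the pool as a covariate and without a filter on low counts.

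**Figure D3:**
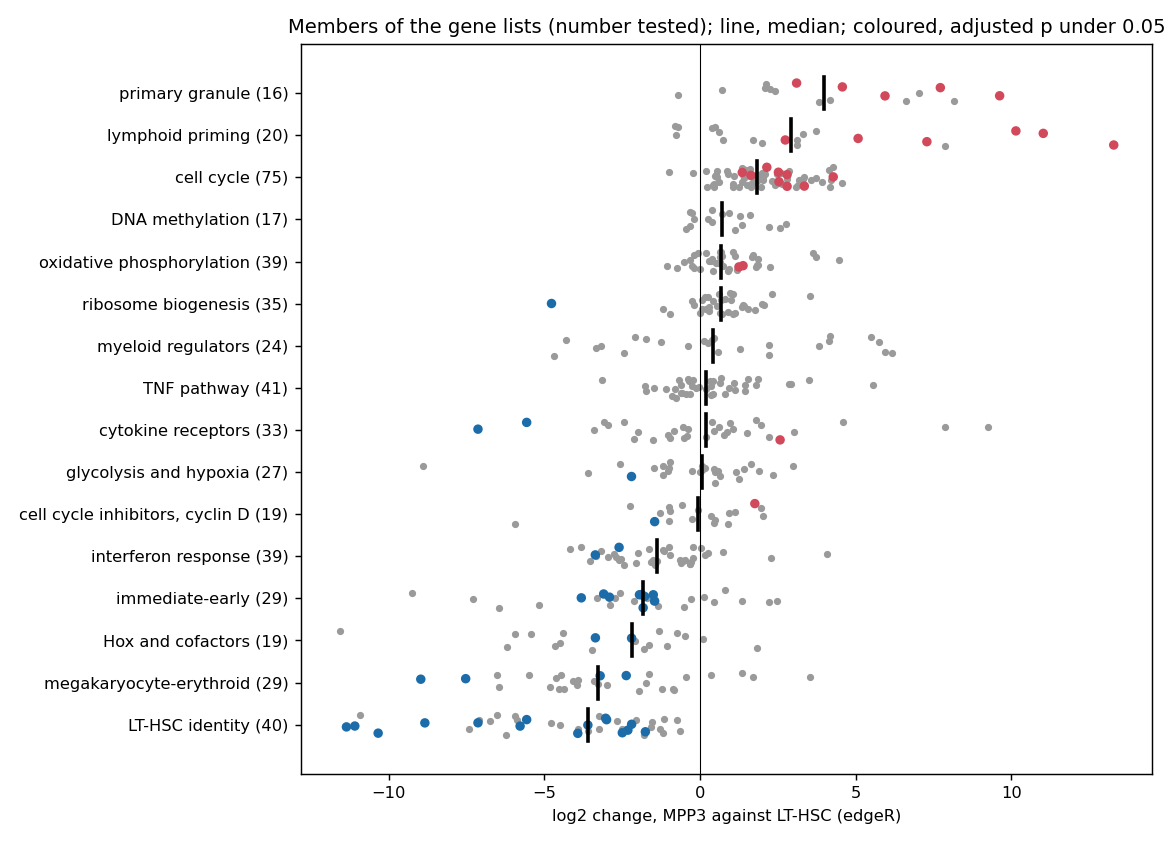
Log2 change from LT-HSC to MPP3 (x axis, edgeR) of every tested member of 16 gene lists (y axis, number tested in brackets), with the list's median as a black line and called genes in colour. LT-HSC identity lies lowest with a median of -3.59 and the primary granule list highest with a median of 3.99.

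Granule genes that neutrophil precursors make first were higher in MPP3 where they were called. Of 16 tested primary granule genes, 5 were called higher and 0 lower, against 0.766% of all genes called higher. A positive change was found in 15, and the median was 3.99. Ms4a3 (ENSMUSG00000024681, chr19:11629496-11640851), a membrane protein that marks committed granulocyte and monocyte progenitors, had 0, 0, 1.39 and 0.698 CPM in LT-HSC and 20.7, 15.5, 108 and 197 CPM in MPP3 (log2 change 7.72, SE 0.93, adjusted p = 0.000813). Cst7, a cystatin, had 2 counts in the 4 LT-HSC libraries together and 15.8, 6.84, 115 and 148 CPM in MPP3. Its ratio of MPP3 to LT-HSC was 1058 with a counting interval of 293 to 8738, and its adjusted p was 0.00199. In the MPP3 of sets 3 and 4 both genes were several times higher than in sets 1 and 2. Nkg7, a granule membrane protein, had 1.23 to 27.97 CPM in LT-HSC and 108, 112, 114 and 477 CPM in MPP3 (log2 change 4.57, SE 0.75, adjusted p = 0.00260). Alas1, the first enzyme of haem synthesis, had 5.44 to 80.1 CPM in LT-HSC and 60.9 to 340 CPM in MPP3 (log2 change 3.10, SE 0.69, adjusted p = 0.02499). Plac8, chosen after its values were seen, was the fifth call (log2 change 5.94, SE 1.403, adjusted p = 0.0360).

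Familiar primary granule genes, also chosen after their values were seen, did not pass. Mpo, which encodes myeloperoxidase, had 1.93, 0.127, 822 and 2848 CPM in the LT-HSC of sets 1 to 4 and 8397, 7726, 16880 and 38180 CPM in MPP3. The groups did not overlap (log2 change 8.16, SE 2.46, adjusted p = 0.165). Elane, which encodes neutrophil elastase, had 0, 0, 257 and 979 CPM in LT-HSC and 771, 801, 2190 and 6777 CPM in MPP3 (log2 change 6.62, SE 2.47, adjusted p = 0.271). Ctsg, the gene of cathepsin G, had 0, 0, 4.32 and 114 CPM in LT-HSC and 105 to 826 CPM in MPP3 (log2 change 7.03, SE 1.58, adjusted p = 0.0520), and Prtn3, the gene of proteinase 3, had 35.8 to 139 CPM and 101 to 1155 CPM (log2 change 2.42, SE 0.89, adjusted p = 0.234). In Mpo, Elane and Ctsg the LT-HSC of sets 3 and 4 lay above those of sets 1 and 2, whereas in Prtn3 set 3 was the lowest of the LT-HSC and set 4 the highest. The LT-HSC of sets 3 and 4 also held the highest sums of the mature neutrophil list, given below, and its part in these values was not tested. Counts of called granule genes were 3 without set 1, 3 without set 2, 3 without set 3 and 0 without sets 1 and 4. The median without sets 1 and 4 was 3.79.

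Regulators and receptors of the myeloid lineage gave no edgeR call among 24 tested (10 at an unadjusted p under 0.05), with 15 positive changes and a median of 0.42. Gfi1, a repressor that guides neutrophil fate, had 1.23 to 15.6 CPM in LT-HSC and 32.3 to 121 CPM in MPP3 (log2 change 3.81, SE 1.03, adjusted p = 0.0737). Fcgr2b and Fcgr3 encode the Fc gamma receptors bound by the CD16/32 antibody. Fcgr2b had at most 1.48 CPM in LT-HSC and 4.34 to 63.0 CPM in MPP3 (adjusted p = 0.0603), whereas Fcgr3 reached 54.8 CPM in the LT-HSC of set 4 and overlapped (adjusted p = 0.129). Lyz2, the gene of lysozyme, had 126, 65.7, 448 and 1717 CPM in LT-HSC and 32.7 to 141 CPM in MPP3 (log2 change -2.09, SE 0.61, adjusted p = 0.101). With DESeq2, tried as an alternative, 5 of the 24 were called higher and 4 lower, and with limma voom 4 and 3.

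Genes of lymphoid priming were higher in MPP3 where they were called. Among 20 tested, 6 were called higher and 0 lower, against 0.766% of all genes called higher, and the median was 2.92. Igll1 (ENSMUSG00000075370, chr16:16860671-16863985), a chain of the surrogate light chain of early B cells, had 1 count in the 4 LT-HSC libraries together and 392, 25.4, 71.5 and 81.1 CPM in MPP3. Its ratio of MPP3 to LT-HSC was 3986 with a counting interval of 715 to 157400, and its adjusted p was 0.000592. Dntt (ENSMUSG00000025014, chr19:41029275-41059525), the polymerase that adds bases at antigen receptor junctions, had 0 counts in every LT-HSC library and 381, 35.4, 138 and 159 CPM in MPP3. It was at least 394-fold higher in MPP3 against 3 counts per library (adjusted p = 0.000667). Rag1, the recombinase, had 1 count in LT-HSC and 167, 17.5, 55.6 and 32.5 CPM in MPP3, a ratio of 1851 with a counting interval of 332 to 73110 (adjusted p = 0.00932). In all 3 genes the MPP3 library of set 1 was the highest and that of set 2 the lowest.

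Ebf1, the B lineage transcription factor, was present in both cell types, at 55.0, 34.2, 33.8 and 69.5 CPM in LT-HSC and 978, 164, 299 and 186 CPM in MPP3 (log2 change 2.74, SE 0.45, adjusted p = 0.00260). Il7r, the interleukin 7 receptor of lymphoid progenitors, missed the threshold, with 0, 0, 0 and 6.11 CPM in LT-HSC and 131, 5.17, 24.4 and 48.1 CPM in MPP3 (log2 change 7.88, SE 1.92, adjusted p = 0.0620). B cell markers moved with these genes: all 12 had a positive change, 0 were called by edgeR (7 at an unadjusted p under 0.05, 7 called by DESeq2 and 6 by limma voom), and their sum was 94.0, 2.02, 92.4 and 494 CPM in the LT-HSC of sets 1 to 4 and 1255, 206, 356 and 603 CPM in MPP3. Cd79b, a signalling chain of the B cell receptor, had 18.6 to 56.0 CPM in MPP3 and at most 5.86 CPM in LT-HSC (adjusted p = 0.0942), and Cd79a reached 89.0 CPM in the LT-HSC of set 4 (adjusted p = 0.118). In the other groups the B cell sum was 2.55 to 71.8 CPM in LT-HSC and 130 to 1950 CPM in MPP3. The part of B cells in the lymphoid result was not tested. Without set 1 the lymphoid list held 3 called genes, and without sets 1 and 4 it held 2, Igll1 and Dntt.

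Plasma cell markers were higher in MPP3 where they were called. Of 18, 4 were called higher and 0 lower, against 0.766% of all genes called higher. All 18 had a positive change, and the median was 4.69 (4.68 at the bound). Igha, the constant region of IgA (ENSMUSG00000095079, chr12:113254830-113260236), had 2.97, 0.127, 9.57 and 1.22 CPM in LT-HSC and 7787, 10020, 9329 and 27800 CPM in MPP3 (log2 change 12.48, SE 1.45, adjusted p = 0.00260). Xbp1, the transcription factor of the unfolded protein response, had 29.4 to 121 CPM in LT-HSC and 252 to 389 CPM in MPP3 (log2 change 2.04, SE 0.45, adjusted p = 0.0230). Irf4, a factor of plasma cell fate, ranged from 0 to 9.07 CPM and from 64.6 to 240 CPM (adjusted p = 0.0499), and Creld2, an endoplasmic reticulum chaperone, from 0 to 5.55 CPM and from 12.3 to 53.9 CPM (adjusted p = 0.0406). The list's sum was 12980, 160, 179 and 17040 CPM in the LT-HSC of sets 1 to 4 and 24130, 19570, 16600 and 45660 CPM in MPP3. In the other groups it was 99.0 to 317 CPM in LT-HSC and 1899 to 45160 CPM in MPP3. The LT-HSC of sets 1 and 4 thus held a sum far above every other LT-HSC library, although not for Igha, which was low in all 4. The list held 1 called gene without set 1, 2 without set 2, 2 without set 3, 1 without set 4 and 1 without sets 1 and 4.

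P4hb and Serp1 were named as single genes, from the 12 with the smallest adjusted p on the higher side, and no list of secretory genes was tested. P4hb, a protein disulfide isomerase, had 30.3, 55.9, 90.7 and 121 CPM in LT-HSC and 175, 244, 418 and 602 CPM in MPP3 (log2 change 2.29, SE 0.31, adjusted p = 0.000667). Serp1, a protein of the translocon, had 35.2 to 109 CPM in LT-HSC and 133 to 393 CPM in MPP3 (log2 change 2.18, SE 0.35, adjusted p = 0.00255). Both separated the groups and were higher in the MPP3 of each set, which the choice of the 12 required. Neither was called without sets 1 and 4. Chdh, the choline dehydrogenase of mitochondria, had 0.148, 0.127, 0.154 and 4.71 CPM in LT-HSC and 114, 52.7, 150 and 222 CPM in MPP3 (log2 change 7.94, SE 0.98, adjusted p = 0.000626). The immunoglobulin segments Iglv1 and Ighv1-64 had 3 and 2 counts in LT-HSC in all, and ratios of 310 (counting interval 106 to 1504) and 3550 (983 to 29310). Reads of such segments can be split among near-identical copies by the counting program, so their values are uncertain. The plasma cell marker sums above were also higher in the MPP3 of each set. Among the LT-HSC libraries the order differed: the sums were highest in sets 1 and 4, whereas P4hb was lowest in set 1 and highest in set 4. The part of plasma cells was not tested.

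**Figure D4:**
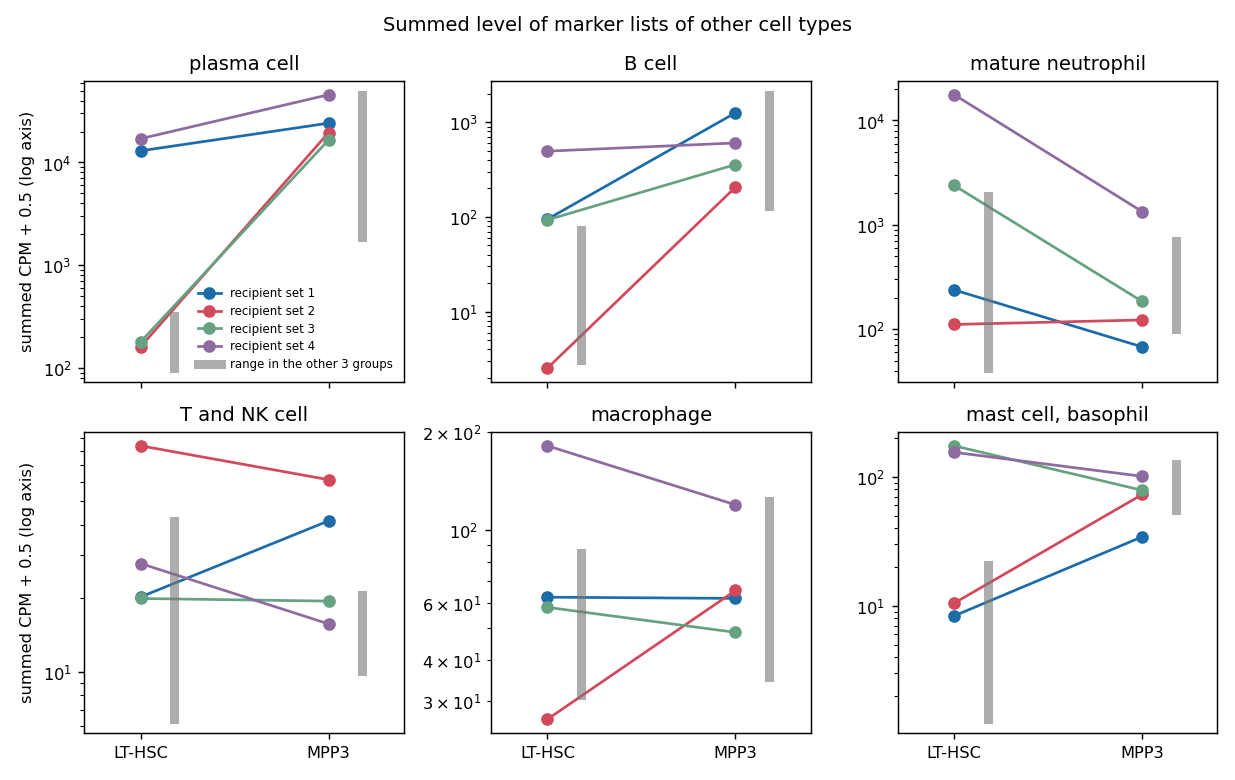
Summed CPM plus 0.5 on a log axis of marker lists of 6 other cell types in LT-HSC and MPP3, with a line per recipient set and grey bars for the range over the other 3 groups of the series. The LT-HSC of sets 1 and 4 lie at 12980 and 17040 CPM for the plasma cell list, and those of sets 3 and 4 at 2382 and 17660 CPM for the mature neutrophil list, above the grey bars.

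Mature neutrophil markers varied widely among the LT-HSC libraries. Their sum was 237, 111, 2382 and 17660 CPM in the LT-HSC of sets 1 to 4 and 67.1, 122, 184 and 1337 CPM in MPP3, against 41.8 to 1880 CPM in the LT-HSC of the other groups. Of 17 tested, 1 was called lower in MPP3, against 0.668% of all genes. This was Il1b, the gene of interleukin 1 beta. Il1b had 19.1, 32.1, 37.6 and 360 CPM in LT-HSC and 0, 0.167, 0 and 1.35 CPM in MPP3 (log2 change -8.53, SE 2.00, adjusted p = 0.0417). The call of Il1b ended without any 1 of the 4 sets, without the replicate block, with the pool as a covariate and without sets 1 and 4. Mmp8, a collagenase of neutrophil granules, reached 862 CPM and Camp, an antimicrobial peptide, 561 CPM in the LT-HSC of set 4, and both had 0 CPM in that of set 2. Of the 18 neutrophil markers, Ly6g alone had 0 counts in every MPP3 library. Lists of T and NK cells (16 markers), macrophages (12), dendritic cells (11), mast cells and basophils (12) and stroma (13) gave no call in the edgeR test, with 1, 3, 2, 0 and 2 members at an unadjusted p under 0.05. DESeq2 called 1, 3, 1, 0 and 2 of them and limma voom 1, 1, 1, 0 and 0. Their highest sums in the 8 libraries were 83.5, 181, 743, 174 and 128 CPM. Each lay above the range of the same cell type in the other groups, which ended at 40.8, 85.0, 430, 20.2 and 94.4 CPM. The dendritic maximum was in MPP3 and the others were in LT-HSC. Of the 16 T and NK cell markers, 5 had 0 counts in all 8 libraries, Cd3e, Cd3g, Trac and Trbc2 among them. The other markers of that list were each detected in at least 1 library. The part of these cell types was not tested.

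Of the interferon-induced genes, most had negative changes. Of 39 tested, 2 were called lower and 0 higher, against 0.668% of all genes called lower. A negative change was found in 33, against 7188 of all 16309 genes, and the median was -1.39. Ifitm3, a membrane protein that blocks virus entry and is high in stem cells, had 274, 811, 892 and 752 CPM in LT-HSC and 55.0, 214, 101 and 93.1 CPM in MPP3 (log2 change -2.60, SE 0.36, adjusted p = 0.000667). Oas3, an antiviral synthetase, had 93.5, 44.4, 88.9 and 136 CPM in LT-HSC and 3.62, 15.5, 8.71 and 9.77 CPM in MPP3 (log2 change -3.36, SE 0.78, adjusted p = 0.0327). Neither overlapped between the groups. Gbp7 and Rsad2, also interferon targets, did not overlap either but were not called (log2 change -1.17 and -3.81, SE 0.37 and 1.31, adjusted p = 0.130 and 0.177). Without set 1, 3 or 4 the list held 1 called gene and without sets 1 and 4 it held 0, with a median of -1.03.

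The TNF pathway, which the series title names, showed no edgeR call among 41 tested genes (2 at an unadjusted p under 0.05), with 21 positive and 20 negative changes and a median of 0.21, near the 0.144 of all genes. Tnf, the ligand, was low and overlapped, at 10.4, 0, 0.154 and 1.92 CPM in LT-HSC and 33.3, 1.83, 6.49 and 1.94 CPM in MPP3 (log2 change 2.94, SE 2.14, adjusted p = 0.606). Tnfrsf1a, the death domain receptor TNFR1, had 99.5, 29.0, 35.0 and 8.90 CPM in LT-HSC and 22.3, 5.004, 43.9 and 32.0 CPM in MPP3 (log2 change -0.67, SE 0.89, adjusted p = 0.807). Tnfrsf1b, the receptor TNFR2, had 84.8, 91.4, 44.1 and 191 CPM in LT-HSC and 137, 18.4, 36.5 and 35.2 CPM in MPP3 (log2 change -1.10, SE 0.68, adjusted p = 0.529). The direction differed between sets for both receptors. Of the signalling members, Tank, an adaptor of TRAF proteins, did not overlap, at 8.79 to 14.1 CPM in LT-HSC and 14.2 to 64.6 CPM in MPP3 (adjusted p = 0.338), and Cyld, a deubiquitinase that restrains NF-kB, did not either, at 103 to 139 CPM and 58.0 to 69.1 CPM (adjusted p = 0.398). DESeq2 called 1 member higher and 1 lower, and limma voom 0.

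Genes of DNA methylation gave no edgeR call among 17 tested (5 at an unadjusted p under 0.05, 5 called by DESeq2 and 0 by limma voom), with a median of 0.69. Dnmt1, the maintenance methyltransferase, had 75.7, 74.7, 204 and 152 CPM in LT-HSC and 370, 231, 211 and 400 CPM in MPP3, without overlap (log2 change 1.35, SE 0.40, adjusted p = 0.1005). Uhrf1, which guides it to replicating DNA, had 24.0 to 49.8 CPM and 41.0 to 184 CPM (log2 change 1.62, SE 0.52, adjusted p = 0.136). Class II antigen presentation gave no edgeR call among 10 (0 at an unadjusted p under 0.05, and 0 by DESeq2 or limma voom). Its invariant chain Cd74 had 192 to 629 CPM in LT-HSC and 432 to 806 CPM in MPP3 (adjusted p = 0.548).

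The metabolic lists held 1 or 2 called genes each. In oxidative phosphorylation 2 of 39 tested genes were called higher and 0 lower, against 0.766% of all genes called higher, with a median of 0.68. Both encode subunits of the mitochondrial ATP synthase: Atp5b had 178 to 362 CPM in LT-HSC and 474 to 1071 CPM in MPP3 (log2 change 1.25, SE 0.24, adjusted p = 0.0106), and Atp5a1 had 83.4 to 195 CPM and 246 to 419 CPM (log2 change 1.38, SE 0.28, adjusted p = 0.0136). Neither overlapped, and neither call remained without set 1, without set 4 or without both. In glycolysis and the hypoxia response 1 of 27 was called lower, against 0.668% of all genes: Slc2a3, a glucose transporter, had 433, 434, 360 and 352 CPM in LT-HSC and 82.9, 161, 93.7 and 41.2 CPM in MPP3 (log2 change -2.21, SE 0.39, adjusted p = 0.00538). It was not called without sets 1 and 4. Pgam1, a glycolytic enzyme, had 12.9 to 33.2 CPM in LT-HSC and 38.03 to 383 CPM in MPP3 and was not called (adjusted p = 0.137). In ribosome biogenesis 30 of 35 genes had a positive change, the median was 0.67, and 1 gene was called lower, against 0.668% of all genes. It was the MYC family member Mycn, lower in MPP3, at 140, 171, 74.4 and 13.96 CPM in LT-HSC against 1.29, 4.50, 8.71 and 0.774 CPM (log2 change -4.78, SE 1.10, adjusted p = 0.0301). The call of Mycn ended without any 1 of the 4 sets and without sets 1 and 4. Heatr1 and Npm1, factors of ribosome assembly, had positive changes of 1.54 and 0.98 without a call (adjusted p = 0.104 and 0.130).

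Aged mutants were then set beside aged and young recipients of control marrow, to ask whether the difference between MPP3 and LT-HSC was itself different. Of the 125 genes called higher in aged mutants, 116 (92.8%) had a positive change in aged controls and 118 (94.4%) in young controls, where 59.4% and 49.6% of all genes did. Of the 109 called lower, 105 (96.3%) and 102 (93.6%) had a negative change, against 38.4% and 48.9% of all genes. The median change of the genes called higher was 3.05 in aged mutants, 1.39 in aged controls and 1.57 in young controls, and that of the genes called lower was -3.06, -1.80 and -2.05. The genes were chosen for their change in aged mutants, so a larger median there is built into the choice.

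**Figure D5:**
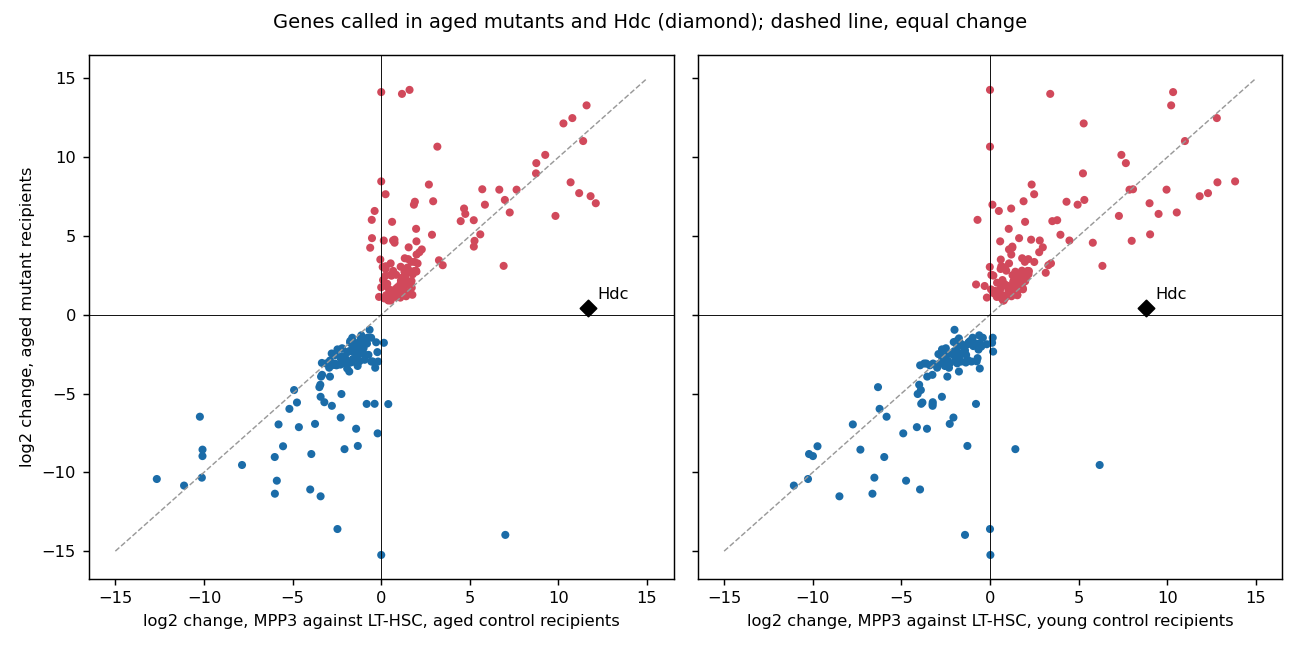
Log2 change from LT-HSC to MPP3 in aged mutant recipients (y axis) of the 234 called genes and Hdc against the same change in aged control (left) and young control recipients (right). Most called genes lie in the lower left and upper right areas, and Hdc lies near 0 on the y axis and far to the right.

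The difference of the cell type effects was called for 1 of 16309 genes (0.00613%) between aged mutants and aged controls, and for 0 (0%) between aged mutants and young controls (edgeR quasi-likelihood, Benjamini-Hochberg). At an unadjusted p under 0.05 there were 823 (5.05%) and 725 (4.45%) genes. DESeq2 called 345 and 257, and limma voom 4 and 6. The called gene was Hdc (ENSMUSG00000027360, chr2:126593667-126619299), the histidine decarboxylase that makes histamine and is expressed by basophils, mast cells and some myeloid progenitors.

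Hdc was present in both cell types of aged mutants, at 7.57, 8.61, 36.9 and 126 CPM in the LT-HSC of sets 1 to 4 and 14.6, 16.01, 46.1 and 94.5 CPM in MPP3. In aged controls it had 0 CPM in all 3 LT-HSC libraries and 28.5 to 91.0 CPM in MPP3, and in young controls 0 to 0.31 CPM in LT-HSC and 11.2 to 83.3 CPM in MPP3. Young recipients of mutant marrow had 0 CPM of Hdc in LT-HSC and 26.9 to 57.7 CPM in MPP3. The MPP3 levels of Hdc overlapped between the groups, and its LT-HSC levels in aged mutants lay apart from the others. The log2 change was 0.44 in aged mutants (SE 0.71, adjusted p = 0.852), and it was smaller by 11.24 (SE 1.61, adjusted p = 0.0359) than in aged controls, a fitted size that depends on the prior count because of the zeros there. Against young controls the difference was -8.37 (SE 1.23, adjusted p = 0.0503). The call against aged controls ended when any 1 of the 4 sets was left out (adjusted p from 0.0536 to 0.241) and with the pool as a covariate (0.113), while the difference stayed between -11.42 and -10.95. Without sets 1 and 4 the call ended too (edgeR adjusted p = 0.637). It remained without the block (0.0255), with RLE scaling (0.0362) and without a filter on low counts (9.2e-06). DESeq2 (1.15e-08) and limma voom (0.000495) also kept it. Marker sums of mast cells and basophils were 7.86, 9.998, 174 and 155 CPM in these LT-HSC. In the LT-HSC of the other groups they were 0.82 to 20.2 CPM. The list holds Hdc, which made up most of the sum in sets 1, 2 and 4, though not in set 3. In sets 1, 2 and 4 the sum thus mostly restates Hdc and is no separate measure. In the LT-HSC of set 3, Hdc gave 36.9 of the 174 CPM, and other markers of the list gave the rest. In this list 6 of the 12 markers, Fcer1a and Cma1 among them, had 0 counts in all 8 libraries. The other markers were each detected in at least 1 library. Neutrophil sums were also highest in sets 3 and 4. The part of either cell type was not tested.

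Beside Hdc, the rule for naming genes gave Pik3cd and Igkv4-72 for the comparison with aged controls and Ear2 and Msh6 for that with young controls, none of them called there. Pik3cd, the delta catalytic subunit of PI3 kinase, had 60.2 to 287 CPM in LT-HSC and 49.7 to 188 CPM in MPP3 of aged mutants. Igkv4-72, a kappa variable segment, was called lower in MPP3, but this rested on the LT-HSC of set 4, which had 1052 CPM, while the other 7 libraries had at most 0.154 CPM. Ear2, an eosinophil-associated ribonuclease, was called lower too (adjusted p = 0.0122), with 8.75, 0, 101 and 350 CPM in LT-HSC and at most 0.677 CPM in MPP3. Msh6, a mismatch repair gene, was called higher, at 14.8 to 44.1 CPM in LT-HSC and 77.8 to 157 CPM in MPP3 (log2 change 1.92, SE 0.45, adjusted p = 0.0327). Ear2 was not called without set 1, 3 or 4, and Msh6 was called, of the 4 settings that leave out 1 set, only without set 3.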

How the data were processed

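The authors deposited 1 table of whole-number gene counts that are not normalized, for 28 bulk RNA-seq libraries of LT-HSC and MPP3. Per the submitters' processing notes, RSEM 1.2.12, Bowtie2 2.2.0, SAMtools 0.1.18, edgeR 3.5.3 and the build GRCm38 were used. The strand setting, the annotation and how estimated counts became whole numbers are not given in the sources used here, so reads of overlapping and antisense genes may not be told apart. Of 38924 Ensembl identifiers, 37607 were matched to symbols of GENCODE M21, and 0 columns belonged to no sample. Groups were taken from the sample descriptions and sets of recipients from the titles.

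Counts were analysed here with edgeR 4.0.16 in R 4.3.3. After filterByExpr and TMM scaling, 1 quasi-likelihood model (robust, 2-sided) was fitted to all 28 libraries, with the 14 recipient sets as blocks and an MPP3 coefficient for each combination of age and genotype, which left 10 residual degrees of freedom. The Benjamini-Hochberg adjustment covered all 16309 genes (threshold 0.05). In the aged mutants the replicate numbers pair the samples, because both cell types of a number came from the same animals. Aged controls were paired only in part. Some of their MPP3 libraries came from 1 recipient, whereas the LT-HSC library of the same set pooled 2. Deviations from the group means correlated by 0.015 to 0.089 within sets, over 7666 genes. CPM are TMM-normalized, the floor is 3 counts per library, and intervals cover counting error only. On simulated counts of 15418 genes for this comparison, the fit recovered 8% of changes of 2 and 38% of changes of 4 on the log2 scale, and called 46 genes, 0 of them unchanged. Alternatives were fits without the block, on the 8 libraries only, without a set, by pool, with other filters and scaling, and with DESeq2 1.42.0 and limma voom (limma 3.58.1).

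Members and gene lists were chosen with earlier results of these data known. Named genes were Slamf1, Cd48, Flt3, Dnmt3a, Tnf, Tnfrsf1a and Tnfrsf1b, the 12 per direction with the smallest adjusted p among called, named, non-overlapping genes of 1 direction in all sets, up to 4 per list by p, and up to 3 per difference of effects. Not all of them are printed, some items are not reported here, and Plac8, Mpo, Elane, Prtn3 and Ctsg were added after their values were seen. The genes Ly6g, Cd3e, Cd3g, Trac, Trbc2, Fcer1a and Cma1 are named only for counts of 0, likewise afterwards. Promoter windows came from the RefSeq table, which matched 62 of 75 cell cycle genes and 25 of 30 immediate-early genes.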

Additional observations from a re-analysis of the deposited data

Results flagged for a closer look

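The cell type difference of Hdc differed between aged mutants and aged controls by -11.24 on the log2 scale (edgeR adjusted p = 0.0359). Hdc was also expressed in the LT-HSC of all 4 aged mutant sets, at 7.57 to 126 CPM. In the LT-HSC of young recipients of mutant marrow it had 0 CPM.

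In 21 of 163 groups of 4 libraries (a named gene in 1 cell type, on the log2 of CPM plus 2), 1 library lay further from the rest than a test for a single outlying value allows, where chance alone gives about 1 in 20. That rate is for normally spread values, and some flagged groups, such as Il7r in LT-HSC and Mmp8 in MPP3, had 0 CPM in all other libraries. The count therefore does not show an excess of outlying libraries. Genes are not independent, and 5 of the 21 were the LT-HSC library of set 4. It had 0 CPM of Pf4 (other sets 11.8 to 14.7), 54.8 of Fcgr3 (0 to 0.93), 6.11 of Il7r (0 in the others), 4.71 of Chdh (0.127 to 0.154) and 1052 of Igkv4-72 (at most 0.154).

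The MPP3 library of set 4 had 3.48 CPM of Tgm2 (at most 0.171 in the other sets), 3.10 of Zfpm1 (14.3 to 17.7), 477 of Nkg7 (108 to 114), 1.35 of Il1b (at most 0.167) and 26.0 of Camp (at most 0.171). The MPP3 library of set 2 had 164 CPM of St3gal1 (73.1 to 83.7), 501 of Zfp36l2 (313 to 317), 3.34 of Gfi1b (at most 0.129) and 133 of Serp1 (344 to 393). In set 3, MPP3 had 3.755 CPM of Slamf1 (at most 0.29 in the other sets) and 3.07 of Mmp8 (0 in the others), and LT-HSC had 21.6 of Cd48 (at most 0.174), 34.6 of Flt3 (59.7 to 61.3) and 5.55 of Creld2 (at most 0.148). Set 1 had 274 CPM of Ifitm3 in LT-HSC (752 to 892 in the others), and set 2 had 131 of Top2a in LT-HSC (317 to 325).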

How the results depend on the processing

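For MPP3 against LT-HSC, 234 genes were called. Without the replicate block, which ignores the pairing by animals, 331 were called, 176 of them shared. Among the 8 libraries alone, 29 were called with the block (3 residual degrees of freedom, 11521 genes) and 29 without it. DESeq2 called 1876, limma voom 639 and the fit without a filter on low counts 670, and 54 were called in pool 1 only and 15 without sets 1 and 4. Leaving out 1 set gave 57 to 180. For the difference from aged controls, 1 gene in the main result, DESeq2 called 345, limma voom 4 and no filter 55, and with the pool as a covariate, without any 1 set, and without sets 1 and 4 the count was 0 (803, 812 to 898 and 831 genes at an unadjusted p under 0.05). For the difference from young controls, 0 in the main result, 1 gene was called without the replicate block, 1 with RLE scaling and 1 without immunoglobulin and mitochondrial genes, 257 with DESeq2, 6 with limma voom and 62 without a filter. Leaving out 1 set gave 0 to 0.

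Of 53 called genes named in the text, 29 stayed called whichever 1 set was left out, 40 without the block, 51 with DESeq2, 50 with limma voom, 20 in the 8 libraries with the block and 9 without sets 1 and 4, and all 53 kept their sign without any 1 set. Reversed signs occurred for uncalled genes: Tnfrsf1a 0.05 without set 2 (-1.506 to 0.05 over the sets left out), Dnmt3a -0.047 and Pik3cd 0.218 without sets 1 and 4, and Hdc -0.064 without the replicate block and -0.089 in the 8 libraries without it. The cause was not tested.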
